A study of Homo sapiens with 30 samples.

Results

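The measurements below compare A549 cells kept for 24 h with 500 µg/mL of an ethanol extract of Soshiho-tang with A549 cells that received the vehicle alone. A549 is an established human lung carcinoma line that carries a deletion of the CDKN2A and CDKN2B locus. Soshiho-tang is a herbal decoction of Korean medicine. The comparison rests on 6 of the 30 RNA libraries of the series, chosen by their labels, with 3 libraries on each side. The vehicle is 0.1% DMSO per the labels, and the series text gives a higher concentration. To place the values, the 3 libraries each of Soshiho-tang at 20 and 100 µg/mL and of Yijin-tang, another decoction, at 500 µg/mL are given beside them. All 6 libraries carry batch letter E in their titles. The series text says that doses of the more toxic extracts were lowered to the concentration that spared most cells and that libraries with little RNA were left out. Nothing in the labels ties a replicate to its own culture, so the p-values describe the spread between libraries, which may be technical.

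Cells that lack amino acids, accumulate unfolded proteins in the endoplasmic reticulum (ER) or meet other stresses phosphorylate the translation factor eIF2. This integrated stress response lowers most protein synthesis and favours translation of the transcription factor ATF4, which with its partners raises genes for amino acid supply, tRNA charging and redox balance. Unfolded protein in the ER also acts through IRE1 and XBP1, and unfolded protein in the cytosol through HSF1, each with its own set of chaperones.

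The 6 libraries carried the marks of the line. CDKN2A and CDKN2B had 0 counts in every library, and the summed level of 8 carcinoma epithelium markers was 14731 to 14737 CPM in vehicle and 14832 to 15263 in the treated libraries. Of the immune markers, 2 of 8 were high enough to be tested, and PTPRC, the pan-leukocyte marker, had at most 1 count in a library. Vehicle libraries stood apart in depth and in mitochondrial RNA. They held 19833144 to 22327652 counts against 25008956 to 29566233 in the treated libraries, and the 13 mitochondrial messenger RNAs took 10.5% to 10.9% of their counts against 6.68% to 7.29%. For this reason the results against vehicle are followed by the same treated libraries against those of Soshiho-tang at 20 µg/mL, in which those messages took 6.99% to 8.18%. These comparisons share libraries, and their values are set side by side only.

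Of 17459 genes tested, 5783 (33.1%) were called at an adjusted p below 0.05, 2998 of them higher (17.2%) and 2785 lower (16.0%) at 500 µg/mL. Counts scaled to the plain library total, without a composition factor, gave 4635 higher and 1708 lower, so that the share of higher calls went from 51.8% to 73.1%, while the median log2 fold change of all genes went from 0.011 to 0.11. Changes of at least 2-fold were fewer, with 302 genes higher (1.73%) and 198 lower (1.13%). The 3 treated libraries all lay above the 3 vehicle libraries for 25.8% of genes and all below them for 24.9%. Against 20 µg/mL of the same extract, 3588 genes (20.6%) were called, 1807 (10.3%) higher and 1781 (10.2%) lower; without replicate 2 of the 500 µg/mL group the lower calls were 1183. The lower doses differed less from vehicle. At 100 µg/mL 1879 genes (10.8%) were called, 973 (5.57%) higher and 906 (5.19%) lower, with 334 to 1099 higher and 347 to 1038 lower when 1 library was left out. At 20 µg/mL 1401 (8.02%) were called, 709 (4.06%) higher and 692 (3.96%) lower, with 246 to 606 higher and 266 to 502 lower when 1 library was left out. Throughout, CPM of single genes are read counts scaled to a common TMM-adjusted library total. Summed marker levels are scaled to the plain library total instead. Fold changes are log2 values ± SE from edgeR's quasi-likelihood test with Benjamini-Hochberg adjustment over all genes tested.

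**Figure D1:**
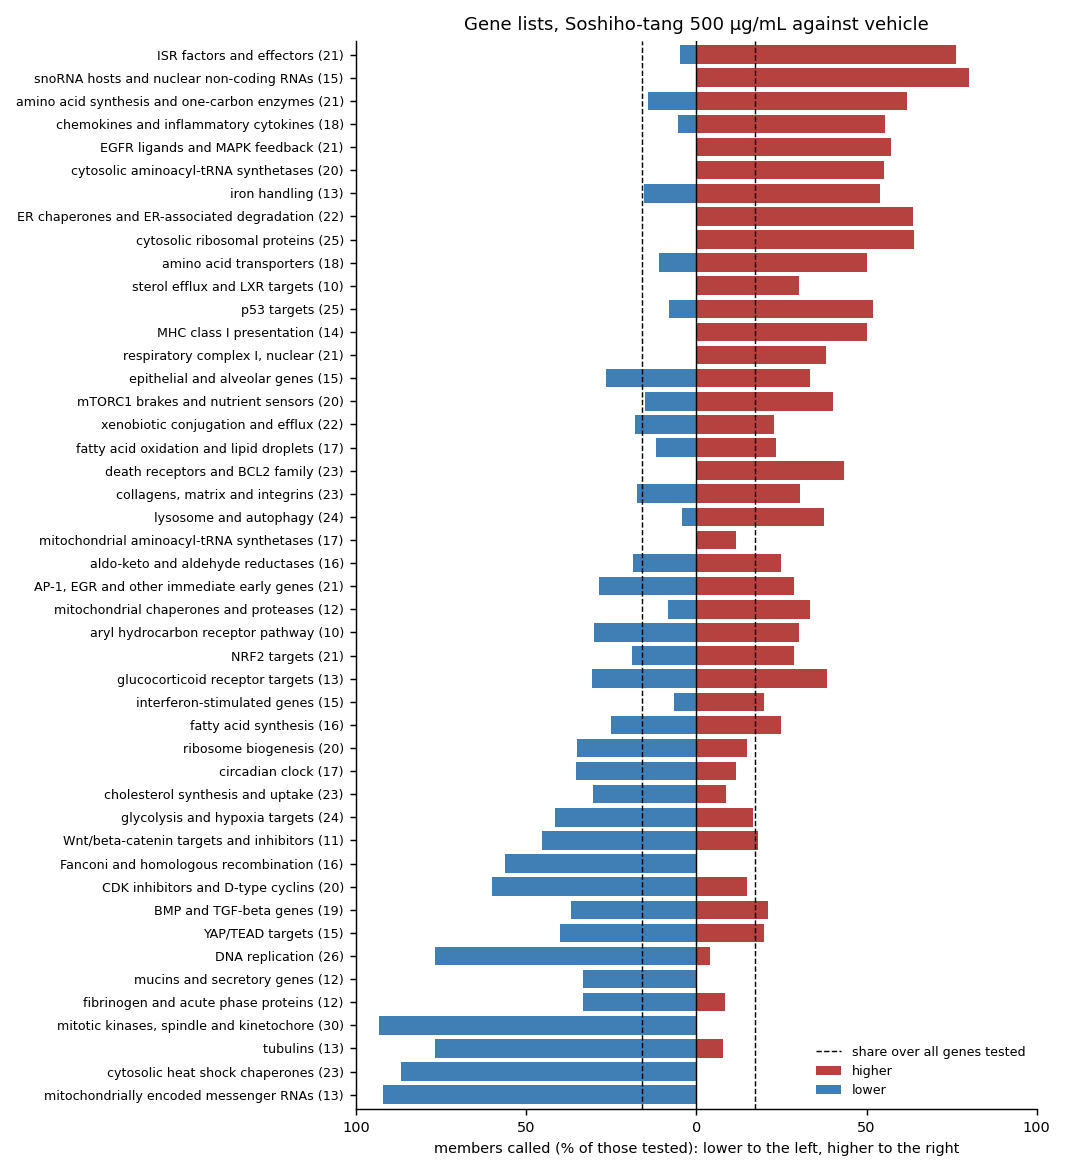
Share of the tested members of the 46 gene lists with at least 10 tested (number tested in parentheses) that were called higher (red, to the right) or lower (blue, to the left) at 500 µg/mL of Soshiho-tang against vehicle, ordered by median fold change, with dashed lines at the shares over all genes tested (17.2% higher, 16.0% lower). Integrated stress response genes stand at the top, and mitotic, tubulin, heat shock and mitochondrial messages at the bottom.

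Stress response genes rose at 500 µg/mL. Of the 21 integrated stress response (ISR) factors and effectors tested, 16 rose and 1 fell, with a median log2 fold change of 1.08 beside 0.011 over all genes. NIBAN1, a regulator of translation and cell survival under stress that stands outside that list, was at 6.64, 5.55 and 4.64 CPM in the vehicle libraries and at 37.8, 47.3 and 52.95 CPM at 500 µg/mL. That is a log2 fold change of 3.04 ± 0.14 (adjusted p = 1.45e-13), the highest among named genes. The secreted glycoprotein STC2, which limits calcium entry into cells, was at 19.2, 21.5 and 21.3 CPM in vehicle and at 107, 128 and 132 CPM at 500 µg/mL. For each gene the treated libraries lay far above all vehicle libraries. ADM2, a peptide hormone of the calcitonin family that is in none of the lists, went from 1.41, 1.73 and 1.45 to 8.74, 10.5 and 9.67 CPM (2.65 ± 0.15).

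TRIB3, a pseudokinase that restrains AKT and ATF4, was at 58.4, 57.5 and 61.4 CPM in vehicle and 248, 274 and 248 CPM at 500 µg/mL, a change of 2.12 ± 0.086 (adjusted p = 8.24e-15). DDIT3 encodes CHOP, the transcription factor tied to cell death under prolonged ER stress, and rose from 8.58, 9.22 and 7.46 to 27.9, 38.4 and 33.8 CPM. CHAC1, which degrades glutathione, rose by 1.59 ± 0.12, and ATF3, an ATF family repressor, by 1.501 ± 0.12. The groups did not overlap for any of these genes. SESN2 (1.29), DDIT4 (1.28), GDF15 (1.23), the eIF2 phosphatase subunit PPP1R15A (1.15), VLDLR (1.13), NUPR1 (1.08) and CEBPG (0.92), the partner of ATF4, rose as well.

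The ATF4 message itself moved little. It was at 272, 290.4 and 272 CPM in vehicle and 340.1, 332 and 348 CPM at 500 µg/mL, a rise of 0.29 ± 0.069 (adjusted p = 0.002), and the main control of ATF4 is known to act on its translation, which these data do not measure. ATF5, a related factor, was the member that fell (-0.32 ± 0.096, adjusted p = 0.0126), and that call was lost with counts scaled to plain library totals (adjusted p = 0.0601). It was also lower than vehicle at 20 µg/mL (-0.44). ERO1A, KLHL24, JDP2 and CEBPB were not called.

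The dose steps of these genes were uneven. STC2 was at 20.04, 19.4 and 18.7 CPM at 20 µg/mL and 23.5, 23.5 and 23.9 CPM at 100 µg/mL, so that nearly the whole difference lay between 100 and 500 µg/mL. Of the same list 0 rose and 2 fell at 20 µg/mL, 1 rose and 3 fell at 100 µg/mL, and 18 rose and none fell between 20 and 500 µg/mL, where 10.3% of all genes were higher. In the 500 against 20 µg/mL comparison the changes were 3.00 ± 0.14 for NIBAN1, 2.66 ± 0.065 for STC2, 2.18 ± 0.11 for DDIT3 and 1.95 ± 0.12 for CHAC1. The difference between 100 and 500 µg/mL was not tested.

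**Figure D2:**
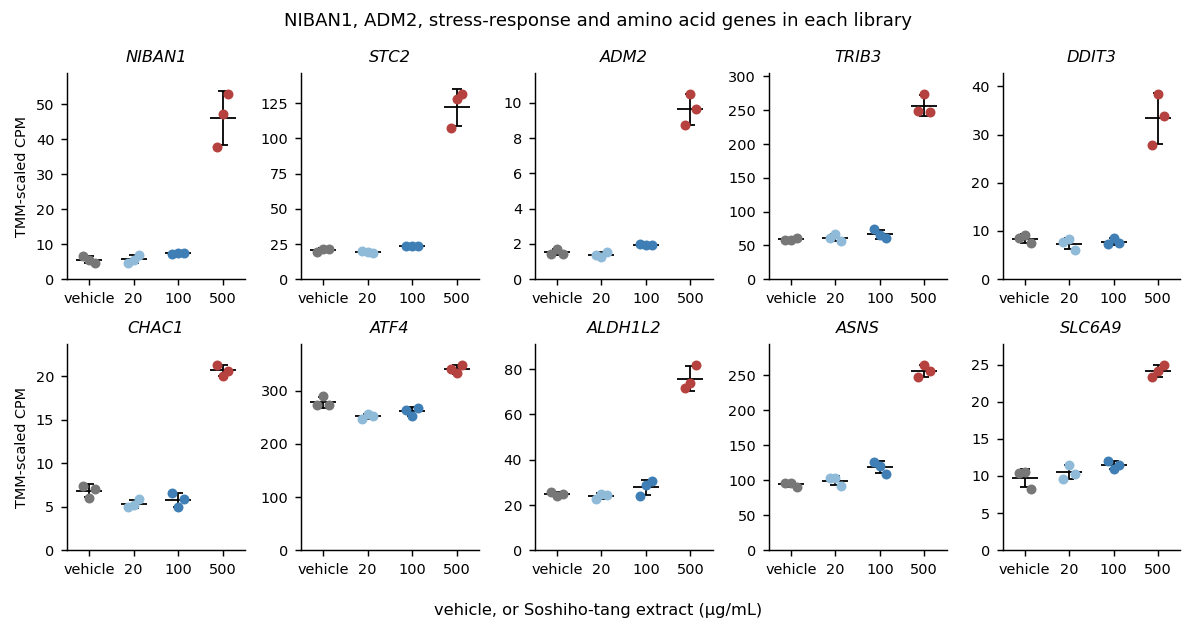
Level of NIBAN1, ADM2 and 8 stress response and amino acid genes (TMM-scaled CPM, linear axes from 0) in each library of vehicle and of Soshiho-tang at 20, 100 and 500 µg/mL; points are libraries, bars the mean ± SD of 3 libraries. For every gene shown the 3 libraries at 500 µg/mL lie above all others, with ATF4 the smallest step.

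Enzymes that make amino acids and move one-carbon units rose alongside. Of 21 tested, 13 rose and 3 fell, with a median of 0.56. The serine pathway was raised at each step: PHGDH, its first enzyme, was at 57.9, 61.3 and 56.2 CPM in vehicle and 152, 155 and 152 CPM at 500 µg/mL (1.39 ± 0.075), PSAT1 rose by 1.13 ± 0.051 and PSPH by 0.49 ± 0.052. ASNS, which makes asparagine, went from 95.7, 96.1 and 90.1 to 248, 265 and 256 CPM (1.45 ± 0.058, adjusted p = 8.24e-15). Among mitochondrial folate enzymes ALDH1L2 rose by 1.61 ± 0.10, MTHFD2 by 1.02 ± 0.067, SHMT2 by 0.62 ± 0.074 and MTHFD1L by 0.37 ± 0.045. Of their cytosolic counterparts SHMT1 (0.0053) and ALDH1L1 (0.40) were not called. MTHFD1 was called lower, a call lost under 8 of the alternatives. CBS, of transsulfuration, rose by 1.39 ± 0.059, while CTH, the next enzyme of that route, was not called (-0.048). GPT2 (1.10), PYCR1 (0.93), GOT1 (0.68) and ASS1 (0.56) rose. At 20 µg/mL 1 member was higher than vehicle, and from 20 to 500 µg/mL 13 rose and 3 fell.

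Amino acid transporters moved less evenly, with 9 of 18 higher, 2 lower and a median of 0.23. The glycine carrier SLC6A9 was at 10.4, 10.5 and 8.30 CPM in vehicle and 23.4, 24.2 and 25.0 CPM at 500 µg/mL (1.32 ± 0.092), and the neutral amino acid carrier SLC1A4 rose by 1.15 ± 0.059. SLC7A11, the cystine carrier, rose by 0.55 ± 0.12, and SLC38A2 by 0.60 ± 0.085. SLC7A5, the large neutral amino acid carrier and an ATF4 target in other settings, did not pass the test. It was at 3707, 3782 and 3822 CPM in vehicle and 3871, 3794 and 3536 CPM at 500 µg/mL, with overlapping groups. SLC7A6 fell by 0.39 ± 0.075. Between 20 and 500 µg/mL 8 rose and 1 fell.

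Aminoacyl-tRNA synthetases join amino acids to their tRNAs, in the cytosol or in mitochondria. Of 20 cytosolic enzymes 11 rose and 0 fell (median 0.32), against 2 and 0 of 17 mitochondrial ones (median 0.057). AARS1 was at 288, 286 and 287 CPM in vehicle and 475, 490.0 and 501 CPM at 500 µg/mL (0.77 ± 0.049, adjusted p = 2.86e-11), and CARS1 at 62.4, 67.0 and 66.6 and 109, 116 and 108 CPM (0.77 ± 0.053). GARS1 (0.69), MARS1 (0.69), SARS1 (0.68), YARS1 (0.54), WARS1 (0.54), IARS1 (0.52), NARS1 (0.48), EPRS1 (0.43) and LARS1 (0.20) rose. The other 9, among them TARS1, VARS1 and both FARS subunits, lay between -0.18 and 0.10 and were not called. With an offset for transcript length 5 cytosolic enzymes were called lower, beside 11 called higher. With counts scaled to plain library totals 8 mitochondrial enzymes were called higher. Against 20 µg/mL of the extract 11 cytosolic enzymes rose and 2 fell, and of the mitochondrial ones 0 rose and 3 fell (0 fell without replicate 2 of the 500 µg/mL group).

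**Figure D3:**
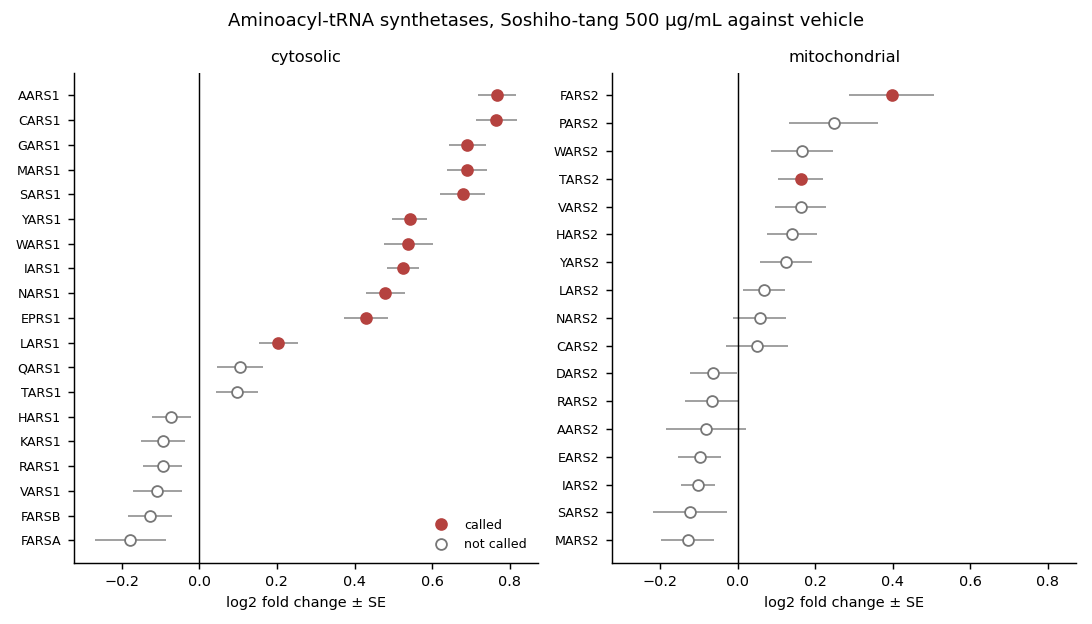
Log2 fold change ± SE of the reported cytosolic (left) and mitochondrial (right) aminoacyl-tRNA synthetases at 500 µg/mL of Soshiho-tang against vehicle; filled points were called at an adjusted p below 0.05. Of the cytosolic enzymes 11 lie between 0.20 and 0.77 and the others near 0, while 2 mitochondrial enzymes were called.

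ATF4 and C/EBP proteins bind a composite element, searched here as TGATGNAAN on both strands of RefSeq promoter windows (GRCh38.p14) from 250 bases before to 50 after the gene start. It was in 1.70% of the 11863 windows of genes tested and in 3.67% of all 27305 windows. Of the 64 windows of the ISR, amino acid enzyme, transporter and cytosolic synthetase lists 14 held it (21.9%), and of the 39 of members called higher 13 did (33.3%). Synthetases held it most often, in 6 of 16 windows (37.5%); TARS1 has a match and was not called. The same 9 letters, GTTGCATCA, stand in AARS1, CARS1, IARS1, MARS1, CHAC1 and GOT1, and NARS1 holds them on the opposite strand. A match is a description of letters and not of binding. Stretches around the match are shown for the 3 called members with the largest fold changes, CHAC1 (chr15:40953221-40953309, + strand), ATF3 (chr1:212565176-212565264, + strand) and ASNS (chr7:97872428-97872516, - strand), and for 4 synthetases picked after their values were seen, AARS1 (chr16:70289646-70289734, - strand), CARS1 (chr11:3057418-3057466, - strand), IARS1 (chr9:92293698-92293751, - strand) and MARS1 (chr12:57488023-57488071, + strand), to show the shared letters; capitals mark the match, and each is written 5′ to 3′ on the gene's strand.
CHAC1: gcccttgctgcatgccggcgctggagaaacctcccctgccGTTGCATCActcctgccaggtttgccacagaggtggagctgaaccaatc
ATF3: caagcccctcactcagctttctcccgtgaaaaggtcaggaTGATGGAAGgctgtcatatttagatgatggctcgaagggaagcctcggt
ASNS: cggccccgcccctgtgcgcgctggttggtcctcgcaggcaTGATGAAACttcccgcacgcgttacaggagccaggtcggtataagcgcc
AARS1: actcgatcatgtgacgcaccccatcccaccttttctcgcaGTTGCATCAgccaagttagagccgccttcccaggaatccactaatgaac
CARS1: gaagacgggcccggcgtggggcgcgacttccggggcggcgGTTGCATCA
IARS1: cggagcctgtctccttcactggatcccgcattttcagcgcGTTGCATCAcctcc
MARS1: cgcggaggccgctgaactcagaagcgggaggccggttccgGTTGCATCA

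Genes that sense nutrients or restrain the growth kinase mTORC1 rose in part. Of 20 tested 8 rose and 3 fell (median 0.14), where 17.2% of all genes tested were higher and 16.0% lower. The share that fell was thus close to that of all genes, and only the share that rose was above it. NIBAN1, SESN2 and DDIT4, given above, are in this list. EIF4EBP1, which blocks cap-dependent translation when mTORC1 is off, rose by 0.77 ± 0.099, FLCN by 0.74 ± 0.094, RRAGD by 0.61 ± 0.15 and RRAGC by 0.55 ± 0.072. The arginine sensor CASTOR1 and its relative CASTOR2 went apart. CASTOR1 rose by 0.62 ± 0.13, and CASTOR2 was at 8.94, 8.52 and 8.35 CPM in vehicle and 4.35, 3.95 and 3.18 CPM at 500 µg/mL, so that it fell by 1.17 ± 0.13 (adjusted p = 3.87e-07). CASTOR2 was lower than vehicle at 20 µg/mL too (-0.51), and fell by 0.66 ± 0.13 from there to 500 µg/mL. TSC1, TSC2, DEPTOR and the GATOR1 subunits were not called. Relative to the 20 µg/mL libraries 8 of the list rose and 3 fell.

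ER chaperones rose by smaller factors, 14 of 22 with none lower and a median of 0.26. ERN1, which encodes the sensor IRE1, was at 17.2, 17.0 and 16.5 CPM in vehicle and 30.6, 34.6 and 36.2 CPM at 500 µg/mL (1.00 ± 0.085). The lumenal chaperone HSPA5 (BiP) went from 599.7, 603 and 619.6 to 916, 963 and 972 CPM (0.65 ± 0.041, adjusted p = 2.49e-11). DNAJB9 (0.90), HERPUD1 (0.85), XBP1 (0.74), HYOU1 (0.63) and EDEM1 (0.50) rose. The lectin chaperones CALR and CANX and the isomerases PDIA3 and PDIA4 were not called. From 20 to 500 µg/mL 11 members rose (median 0.13), ERN1 by 0.97 ± 0.082 and HSPA5 by 0.58 ± 0.041; CRELD2, called against vehicle (0.42), was not called there (0.12).

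The ER stress element, CCAAT and CCACG with 9 bases between them on either strand, was in 14 of the 11863 windows of genes tested (0.118%) and in 6 of 20 of the ER list. Those were HSPA5, HSP90B1, CRELD2, XBP1, CALR and CANX, of which the first 4 were called higher and the last 2 were not called; the call of HSP90B1 was lost without replicate 3 of the 500 µg/mL group (adjusted p = 0.0518). The 3 with the largest fold changes are shown, with the element in capitals: XBP1 (chr22:28800570-28800661, - strand), HSPA5 (chr9:125241351-125241449, - strand) and CRELD2 (chr22:49918514-49918612, + strand).
XBP1: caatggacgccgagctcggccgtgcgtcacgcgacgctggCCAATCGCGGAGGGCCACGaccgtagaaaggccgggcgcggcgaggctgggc
HSPA5: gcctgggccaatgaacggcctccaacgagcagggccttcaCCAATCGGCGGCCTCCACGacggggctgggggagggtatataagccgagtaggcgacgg
CRELD2: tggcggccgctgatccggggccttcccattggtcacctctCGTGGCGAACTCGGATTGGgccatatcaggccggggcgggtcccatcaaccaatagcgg

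Cytosolic heat shock chaperones went the opposite way. Of 23 tested 20 fell and 0 rose, with a median of -0.51. HSP90AA1, the inducible HSP90, was at 2740.0, 2749 and 2740.4 CPM in vehicle and 1589, 1520.2 and 1609 CPM at 500 µg/mL, and fell by 0.80 ± 0.048 (adjusted p = 1.08e-11). HSPA1A, an inducible HSP70, was at 287, 282 and 281 and 116, 99.3 and 113 CPM and fell by 1.37 ± 0.12. Its near-identical copy HSPA1B fell by 1.40 ± 0.13, and reads may be split between these copies. The groups did not overlap. DNAJB4, CRYAB, HSPH1, BAG3, CHORDC1 and STIP1 fell by 0.78, 0.73, 0.68, 0.67, 0.62 and 0.61. The constitutive members HSPA8 and HSP90AB1 fell by 0.50 and 0.51, and their regulator HSF1 was not called.

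Part of this difference was already present at 20 µg/mL, where 7 members were lower than vehicle. Against 20 µg/mL of the extract 21 fell (median -0.41), where 10.2% of all genes did, and HSPA1A fell by 1.10 ± 0.12. HSP90AA1 was at 2211, 2207 and 2395 CPM at 20 µg/mL and 2219.5, 2187 and 2215 CPM at 100 µg/mL, between vehicle and 500 µg/mL. Mitochondrial chaperones and proteases did not fall as a list. Against vehicle 4 of 12 rose and 1 fell, LONP1, the matrix protease, by 0.68 ± 0.065 and HSPA9 by 0.27 ± 0.038 among the former. Against 20 µg/mL 2 of these 12 rose and 2 fell, with values from -0.50 to 0.605.

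The heat shock element, searched as GAA, TTC and GAA blocks spaced by 2 bases on either strand, was in 39 of the 11863 windows (0.329%) and in 3 of 20 windows of the chaperone list (15.0%). Those 3 are shown with the element in capitals, CHORDC1 (chr11:90223050-90223149, - strand) with overlapping matches, HSPA8 (chr11:123062139-123062386, - strand) with matches on both strands, and DNAJA1 (chr9:33025236-33025288, + strand).
CHORDC1: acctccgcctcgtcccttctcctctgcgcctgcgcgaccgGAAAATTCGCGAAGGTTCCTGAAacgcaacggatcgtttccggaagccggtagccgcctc
HSPA8: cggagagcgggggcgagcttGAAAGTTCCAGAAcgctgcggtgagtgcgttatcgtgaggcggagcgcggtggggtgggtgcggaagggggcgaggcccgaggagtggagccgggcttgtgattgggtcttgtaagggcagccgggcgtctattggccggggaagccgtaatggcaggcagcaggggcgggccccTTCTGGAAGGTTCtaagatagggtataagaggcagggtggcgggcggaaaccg
DNAJA1: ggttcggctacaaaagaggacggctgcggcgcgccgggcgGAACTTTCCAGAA

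Cell division genes were lower at 500 µg/mL. Of 30 mitotic kinases, spindle and kinetochore genes 28 fell and 0 rose (median -0.45). In RNA from whole cultures, fewer dividing cells and less of a message per cell cannot be told apart. MKI67, the proliferation marker that coats mitotic chromosomes, was at 816, 833 and 859.9 CPM in vehicle and 419, 352 and 393 CPM at 500 µg/mL, and fell by 1.11 ± 0.095 (adjusted p = 3.42e-09). The cytokinesis kinesin KIF20A went from 87.1, 94.6 and 90.6 to 47.8, 42.8 and 47.4 CPM. ANLN, ASPM, PLK1, AURKA and CENPE fell by 0.86, 0.83, 0.81, 0.74 and 0.72. MAD2L1 and CENPA were not called. Between 20 and 500 µg/mL 29 of 30 fell (median -0.38), and 3 were below vehicle at 20 µg/mL.

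Of 26 DNA replication genes 20 fell and 1 rose, with a median of -0.27; from 20 to 500 µg/mL 18 fell and 0 rose. Among them were the initiation factor MCM10 (-0.59 ± 0.052), the checkpoint adaptor CLSPN (-0.58 ± 0.095), GINS1 (-0.56 ± 0.097) and RRM2 (-0.54 ± 0.045), a ribonucleotide reductase subunit, which fell. Of 16 Fanconi and recombination genes 9 fell, EXO1 by 0.60 and BARD1 by 0.39, with 4 called lower when counts were scaled to plain library totals. Relative to the 20 µg/mL libraries 6 fell and 0 rose. BRCA1 was not called.

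Cyclins and their inhibitors were lower too, with 12 of 20 lower (7 with plain library totals) and 3 higher. CCND3, cyclin D3, was at 182, 189 and 186 CPM in vehicle and 101, 91.7 and 94.4 CPM at 500 µg/mL, and fell by 0.96 ± 0.063. CDKN2C, the p18 inhibitor of CDK4 and CDK6, was at 17.7, 18.8 and 18.5 and 7.92, 8.36 and 9.07 CPM and fell by 1.118 ± 0.076 (adjusted p = 9.52e-11). Both were within 0.11 log2 of vehicle at the lower doses, CCND3 at 0.058 and -0.043 and CDKN2C at -0.051 and -0.11 for 20 and 100 µg/mL. E2F8 and E2F7, repressors of the E2F family, fell by 1.116 and 0.68, CCNE2 by 0.64 and CDK6 by 0.50. CDKN1A, the p21 inhibitor, rose by 0.34 ± 0.073. From 20 to 500 µg/mL 8 members fell, CCND3 by 1.01 and CDKN2C by 1.07, and 1 rose.

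The cell cycle homology region, searched as TTTGAA on both strands, was in 9.90% of windows of genes tested and in 19 of 26 of the mitotic list (73.1%). Of the 24 windows of members called lower 17 held it (70.8%), and MAD2L1 and CENPA have a match and were not called. The 3 called members with the largest fold changes among those with a match are shown with it in capitals: MKI67 (chr10:128126424-128126510, - strand), ANLN (chr7:36389796-36389861, + strand) and ASPM (chr1:197146737-197146822, - strand).
MKI67: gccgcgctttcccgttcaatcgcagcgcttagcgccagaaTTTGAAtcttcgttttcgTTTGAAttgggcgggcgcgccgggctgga
ANLN: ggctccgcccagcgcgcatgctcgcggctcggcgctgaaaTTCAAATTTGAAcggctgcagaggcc
ASPM: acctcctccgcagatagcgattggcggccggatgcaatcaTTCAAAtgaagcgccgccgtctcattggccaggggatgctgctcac

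Tubulins, the subunits of microtubules, were lower in 10 of 13 listed genes (median -0.46). TUBA1B was at 3027, 3231 and 3195 CPM in vehicle and 2173, 2002 and 2172 CPM at 500 µg/mL and fell by 0.57 ± 0.074, and TUBB4B went from 709, 718 and 700.0 to 439, 415 and 434 CPM. TUBB4A, TUBA1C, TUBA4A, TUBB3 and TUBB fell by 0.93, 0.72, 0.65, 0.59 and 0.45, and TUBB2B rose by 0.44 ± 0.10. Members of this family are alike in sequence, so that reads may be split between them. TTC5, which binds nascent tubulin and starts decay of its messages, was not called (-0.11). Between 20 and 500 µg/mL 9 fell (5 without replicate 2 of the 500 µg/mL group) and 1 rose. ACTB, cytoskeletal actin, was at 6074, 6463 and 6031 CPM in vehicle and 4047, 3768 and 3793 CPM at 500 µg/mL, and fell by 0.33 ± 0.064 from 20 to 500 µg/mL.

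**Figure D4:**
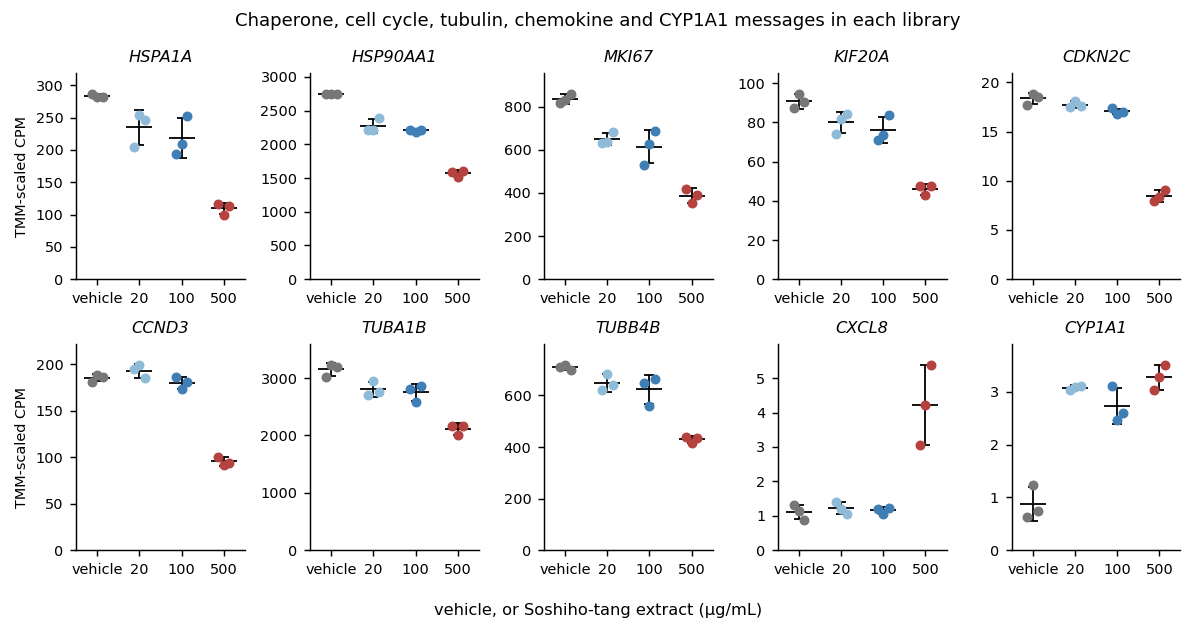
Level of 8 chaperone, cell cycle and tubulin messages, of the chemokine CXCL8 and of CYP1A1 (TMM-scaled CPM, linear axes from 0) in each library of vehicle and of Soshiho-tang at 20, 100 and 500 µg/mL; points are libraries, bars the mean ± SD of 3 libraries. The first 8 genes are lowest at 500 µg/mL, CXCL8 is highest there, and CYP1A1 is above vehicle at every dose.

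Genes of cell death and of p53 rose in part. Of 23 death receptor and BCL2 family genes 10 rose and 0 fell (median 0.077). Among the activators of death PMAIP1 (NOXA) was at 12.2, 10.3 and 9.99 CPM in vehicle and 22.3, 23.6 and 22.7 CPM at 500 µg/mL (1.08 ± 0.11), and HRK, at low level, at 0.261, 0.644 and 0.375 and 1.05, 1.59 and 1.27 CPM (1.60 ± 0.33). TNFRSF10B, the receptor DR5 and a known CHOP target, rose by 0.81 ± 0.045 and BBC3 (PUMA) by 0.69 ± 0.14. Members that protect cells rose less, MCL1 by 0.26 and CFLAR by 0.23, and BCL2L1 and the pore-forming BAX were not called. Against 20 µg/mL of the extract 8 of this list rose and 3 fell (1 without replicate 2 of the 20 µg/mL group), PMAIP1 by 0.97 and TNFRSF10B by 0.81 among the former. Of 25 p53 targets 13 rose and 2 fell. FDXR (0.54), FAS (0.44) and PHLDA3 (0.40) were among those that rose, while the p53 regulator MDM2 (0.10) and CCNG1 (0.042) were not called. GDF15 is given above with the stress response list and CDKN1A with the cyclins and their inhibitors. Relative to the 20 µg/mL libraries 12 p53 targets rose and 0 fell.

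Neutrophil-attracting chemokines rose, 10 of 18 tested cytokine genes being higher and 1 lower (median 0.51). CXCL8 was at 1.31, 1.14 and 0.891 CPM in vehicle and 3.07, 4.23 and 5.39 CPM at 500 µg/mL (1.94 ± 0.24, adjusted p = 1.23e-06). CXCL5, a further neutrophil attractant, was at 60.4, 53.5 and 58.7 and 144, 158 and 151 CPM (1.39 ± 0.076). CXCL2 (1.88), CXCL1 (1.47), CXCL3 (1.27) and the adhesion receptor ICAM1 (1.23) rose. The monocyte chemokine CCL2 fell by 0.72 ± 0.12, and the NF-kappa-B inhibitors NFKBIA and TNFAIP3 were not called. IL6, IL1A, IL1B, CSF2, CXCL6 and CXCL10 were too low to be tested. From 20 to 500 µg/mL 10 rose and 1 fell, CXCL8 by 1.80 ± 0.22 and CXCL5 by 1.15 ± 0.075 among the former.

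Ligands of the epidermal growth factor receptor and feedback genes of the MAPK cascade rose in 12 of 21 cases, with 0 lower and a median of 0.39. EREG was at 129.7, 124 and 129 CPM in vehicle and 250.5, 279 and 269 CPM at 500 µg/mL (1.06 ± 0.088). BTC (1.53), TGFA (1.11) and AREG (0.56) rose, and HBEGF was not called (-0.30). Of the feedback phosphatases DUSP6 (0.55), DUSP4 (0.50), DUSP1 (0.41) and DUSP5 (0.39) rose. Of 21 early genes of growth factor signalling 6 rose (3 without replicate 2 of the 500 µg/mL group) and 6 fell. JUN rose by 0.77 ± 0.063 and KLF2 by 0.92 ± 0.14, FOS fell by 0.52 ± 0.14, and the orphan receptors NR4A1 and NR4A3 fell by 1.02 ± 0.080 and 1.31 ± 0.11. NR4A3 was at 8.78, 8.97 and 8.59 CPM in vehicle and 3.65, 3.53 and 3.41 CPM at 500 µg/mL. Against 20 µg/mL of the extract 14 of the EGFR and MAPK genes rose and none fell, and of the early genes 7 rose and 4 fell.

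Surface and matrix genes changed in both directions. CDCP1, a transmembrane substrate of SRC kinases, was at 6.59, 7.33 and 6.99 CPM in vehicle and 22.2, 25.1 and 25.6 CPM at 500 µg/mL (1.80 ± 0.10), and ULBP1, a ligand of the natural killer receptor NKG2D, rose by 1.80 ± 0.14. TSC22D3 (GILZ), best known as a glucocorticoid target, was at 6.54, 8.27 and 9.05 and 27.4, 28.1 and 30.8 CPM (1.85 ± 0.098). Of 13 glucocorticoid targets 5 rose, TSC22D3, MT2A (0.65) and DUSP1 among them, and 4 fell, SGK1 by 0.44 and PER1 by 0.41, while FKBP5 was not called (-0.13). The integrin subunit ITGA2 rose by 1.21 ± 0.11 and ITGA3 by 0.79 ± 0.062. COL1A1 fell by 0.75 ± 0.10. It is also 1 of the 8 fibroblast markers, 5 of which were tested and whose summed level was 41.4 to 42.6 CPM in vehicle and 27.7 to 34.4 at 500 µg/mL, with DCN at 0 in both groups; the part of such cells in this result was not tested. The BMP antagonist GREM1 rose by 1.36 ± 0.11, and TGFB2 and TGFB1 fell by 0.77 and 0.63. Relative to the 20 µg/mL libraries the changes were 1.78 for CDCP1, 1.78 for ULBP1, 1.74 for TSC22D3, -0.57 for COL1A1 and 1.15 for GREM1, all called.

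Some lists differed from vehicle in one way and from 20 µg/mL in another. Of 15 YAP/TEAD targets 3 rose and 6 fell against vehicle (median -0.23; 3 fell with plain library totals), and 7 rose and 1 fell against 20 µg/mL (median 0.15). LATS2, which restrains YAP, fell in both (0.61 and 0.24), and AXL was -0.024 against vehicle and 0.33 against 20 µg/mL. The gel-forming mucin MUC5AC was at 337, 299.6 and 343 CPM in vehicle, 224, 240.0 and 257 CPM at 20 µg/mL and 328, 289 and 294 CPM at 500 µg/mL. MUC16, the CA125 antigen, was lower at 500 µg/mL in both comparisons, at 2.51, 3.02 and 2.67 CPM in vehicle and 1.13, 0.529 and 0.937 CPM (-1.67 ± 0.26). RNF43, a Wnt target that removes Wnt receptors, fell by 0.74 ± 0.16 against vehicle and by 0.96 ± 0.15 against 20 µg/mL.

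Fibrinogen messages, which the liver makes in the acute phase response and A549 cells express, were lower. Of 12 acute phase genes tested 1 rose and 4 fell, and 1 rose and 7 fell from 20 to 500 µg/mL. FGB was at 233, 218 and 217 CPM in vehicle and 121, 101 and 123 CPM at 500 µg/mL, and fell by 0.96 ± 0.072, FGA by 0.84 ± 0.046 and FGG by 0.52 ± 0.051. HNF4A, a transcription factor that controls liver genes and 1 of 2 tested hepatocyte markers, fell by 0.57 ± 0.057, and CPS1, the other, by 0.44 ± 0.078. Of the 8 hepatocyte markers APOA2 and CYP3A4 were at 0 in all 6 libraries and ALB had at most 2 counts; the summed level was 142 to 147 CPM in vehicle and 103 to 112 at 500 µg/mL, and its part in the result was not tested. BAAT, which conjugates bile acids, was at 19.5 ± 0.571 CPM in vehicle and 11.6 ± 0.230 CPM (SD, n = 3).

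Oxidative stress and metal genes split. Of 21 NRF2 targets 6 rose and 4 fell (median -0.0079), where 17.2% of all genes tested were higher and 16.0% lower. The share that fell was thus close to that of all genes. With plain library totals 10 rose and 2 fell, and with only the groups compared 9 fell. A549 cells carry a KEAP1 mutation that keeps NRF2 active, and NQO1, a classic target, was not called (0.044). HMOX1, heme oxygenase, was at 146, 145 and 143 CPM in vehicle and 243, 249.7 and 249.5 CPM at 500 µg/mL (0.77 ± 0.060), and the exporter ABCC3 rose by 0.71 ± 0.054, while GSR and TKT fell by 0.48 and 0.36. Iron handling genes rose in 7 of 13 cases, SLC39A14 by 0.56 and TFRC by 0.37, and FTL, a ferritin subunit, fell by 0.34 ± 0.084. SQSTM1, the autophagy receptor p62, was among the largest gains in CPM, from 748, 770.2 and 787 in vehicle to 1246, 1313 and 1274 CPM (0.73 ± 0.058); of 24 lysosome and autophagy genes 9 rose and 1 fell, MAP1LC3B by 0.39 and CTSL by 0.81 among the former. From 20 to 500 µg/mL 4 NRF2 targets rose and 6 fell, 6 iron genes rose and 3 fell, and 4 lysosome genes rose and 3 fell. Of all genes tested 10.3% were higher and 10.2% lower there, and the share of lysosome genes that fell was close to that.

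Genes of sterol synthesis and glycolysis were lower in part. Of 23 cholesterol genes 2 rose and 7 fell against vehicle, and 0 rose and 12 fell against 20 µg/mL. With plain library totals 5 rose and 3 fell in the first comparison, and without replicate 2 of the 20 µg/mL group 4 fell in the second. HMGCS1, an early enzyme of the pathway, fell in both, by 0.36 and 0.41 in the respective comparisons. FASN fell by 0.58 ± 0.10, and PLIN2, a lipid droplet coat protein, rose by 0.95 ± 0.073. Of 24 glycolysis and hypoxia genes 4 rose (2 without replicate 1 of vehicle) and 10 fell (5 with plain library totals). The oxygen sensor EGLN3 was at 10.3, 10.9 and 9.90 CPM in vehicle and 5.75, 5.15 and 6.36 CPM at 500 µg/mL, and fell by 0.85 ± 0.084; ADM fell by 0.49 and HK2 rose by 0.71. Against 20 µg/mL of the extract 2 of that list rose and 12 fell (7 without replicate 2 of the 20 µg/mL group).

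Of 10 genes of the aryl hydrocarbon receptor, a sensor of planar aromatic compounds, 4 were higher than vehicle at 20 µg/mL and 0 lower. Of all genes tested 4.06% were higher and 3.96% lower there. CYP1A1 was at 0.627, 1.24 and 0.751 CPM in vehicle, 3.04, 3.09 and 3.12 CPM at 20 µg/mL, 3.11, 2.47 and 2.60 CPM at 100 µg/mL and 3.03, 3.28 and 3.51 CPM at 500 µg/mL. All treated libraries lay above all vehicle libraries, and the 500 and 20 µg/mL groups differed by 0.089 ± 0.15 (adjusted p = 0.738). CYP1B1 rose by 0.83 ± 0.062 against vehicle and was 0.11 ± 0.061 from 20 to 500 µg/mL, not called. TIPARP, which limits the receptor, rose in both (0.74 and 0.23), and AHRR was not called in either. At 500 µg/mL 3 of the 10 rose and 3 fell against vehicle (1 fell with plain library totals), where 17.2% of all genes were higher and 16.0% lower. From 20 to 500 µg/mL 1 rose and 0 fell, where 10.3% of all genes were higher and 10.2% lower. The share that rose there was close to that of all genes. The core of the response element, GCGTG, was in 49.9% of windows of genes tested and in 7 of 8 of this list (87.5%).

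Further differences from vehicle were present at 20 µg/mL. Of 13 mitochondrial messages 12 were lower than vehicle at 500 µg/mL (median -0.83) and 11 at 20 µg/mL (median -0.66), while 1 fell between these doses, with 0 to 5 over the alternatives (0 without replicate 1 of the 500 µg/mL group or replicate 2 or 3 of the 20 µg/mL group, 5 with no filter). MT-ATP8 was at 1637, 2129 and 1739.9 CPM in vehicle and 428, 457 and 609 CPM at 500 µg/mL; its frame overlaps that of MT-ATP6, and the split of reads is uncertain. MT-CO1, MT-ND4, MT-ATP6, MT-CO2, MT-CO3, MT-ND1 and MT-ND2 held, with ACTB, the largest losses in CPM among called genes. AKR1B15, PEDS1-UBE2V1 and USP34-DT, which are a near-identical copy, a readthrough transcript and a divergent transcript of other genes, were at -1.44, -1.61 and -1.22 against vehicle and were not called from 20 to 500 µg/mL. TUBA1B-AS1, antisense to TUBA1B, was at 55.4, 49.5 and 23.3 CPM in vehicle, 0.190, 0.0899 and 0.0936 CPM at 20 µg/mL and 0.117, 0.141 and 0.268 CPM at 500 µg/mL. RN7SL2 and RN7SL1, the signal recognition particle RNAs, were higher than vehicle (2.69 ± 0.75 and 2.10 ± 0.69) with wide spread, at 59.7, 38.4 and 18.4 CPM for RN7SL2; the call of RN7SL1 was lost without replicate 1 of the treated group (adjusted p = 0.117) or without replicate 1 or 2 of vehicle (0.0761 and 0.0644). Neither was called from 20 to 500 µg/mL.

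Nuclear-encoded complex I genes (8 of 21 higher, 14 with plain library totals) and ribosomal protein genes (16 of 25 higher) showed the same arrangement, with 9 and 8 higher at 20 µg/mL and 0 and 2 higher from 20 to 500 µg/mL. Of all genes tested 17.2% were higher at 500 µg/mL and 4.06% at 20 µg/mL against vehicle, and 10.3% from 20 to 500 µg/mL. Of 15 non-coding hosts of small nucleolar RNAs and nuclear RNAs 12 were higher than vehicle, GAS5 by 1.06 ± 0.077, ZFAS1 by 1.17 ± 0.078 and NEAT1 by 1.17 ± 0.14, 6 were higher than vehicle at 20 µg/mL, and 9 rose from 20 to 500 µg/mL, GAS5 by 0.84 ± 0.076 and ZFAS1 by 0.88 ± 0.076. GAS5 and ZFAS1 messages are known to be lost by decay that depends on translation. The part of that decay in these values was not tested.

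The remaining genes with the largest differences have varied roles. MALAT1, an abundant nuclear non-coding RNA, was at 637, 607 and 630.4 CPM in vehicle and 1352, 1739 and 1142 CPM at 500 µg/mL (1.18 ± 0.23), with a difference of 0.56 ± 0.23 from 20 to 500 µg/mL that was not called. The translation factor EEF1A1 rose by 0.30 ± 0.048 against vehicle and RPLP0, a ribosomal stalk protein, by 0.42 ± 0.076. IGFBP4, which binds insulin-like growth factors, rose by 0.28 ± 0.046. ALDH1A1, a retinaldehyde dehydrogenase, rose by 0.16 ± 0.048, a call lost with the transcript length offset (adjusted p = 0.0937). The adhesion molecule MDGA1 fell by 1.27 ± 0.099 and FAM222A by 1.21 ± 0.12, and by 0.98 and 0.71 from 20 to 500 µg/mL. MUC3A, a mucin gene with near-identical repeats, was at -1.33 against vehicle and -0.53 against 20 µg/mL, and CDRT4, which shares a readthrough locus, at 1.82 and 0.86.

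**Figure D5:**
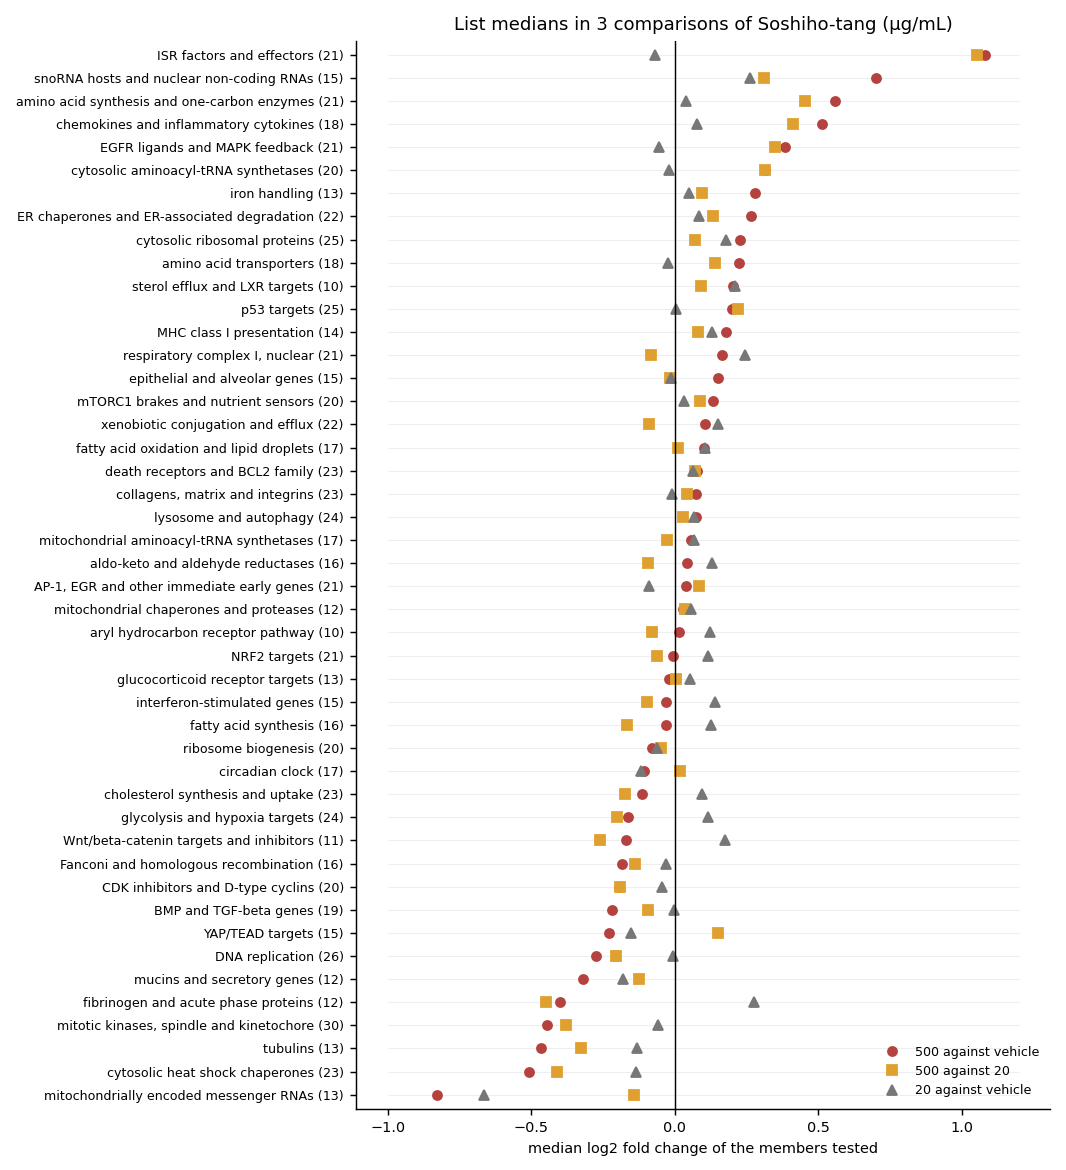
Median log2 fold change of the tested members of each list (number in parentheses) for 500 µg/mL against vehicle (red circles), 500 against 20 µg/mL (orange squares) and 20 µg/mL against vehicle (grey triangles). The stress response list has medians of 1.08 and 1.06 in the first pair and -0.07 in the last, whereas the mitochondrial messages have medians of -0.83, -0.14 and -0.66.

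Set against Yijin-tang at the same dose, 2200 genes (12.6%) were called, of which 1101 (6.31%) were higher and 1099 (6.29%) lower in the Soshiho-tang libraries; without replicate 2 of Soshiho-tang 717 and 644 were. The 6 largest differences upward were those of NIBAN1 and ADM2 and of 4 genes of the stress response list. NIBAN1 was at 8.51, 9.98 and 9.88 CPM with Yijin-tang, a difference of 2.28 ± 0.13 (adjusted p = 1.66e-11), and STC2 at 35.7, 33.8 and 33.2 CPM (1.84 ± 0.062). ADM2, DDIT3, TRIB3 and CHAC1 differed by 1.94, 1.74, 1.58 and 1.45. Of the stress response list 18 of 21 were higher with Soshiho-tang and 0 lower, of the mitotic list 29 of 30 were lower, and of the heat shock list 20 of 23 were lower. By the same rule the largest differences downward were HSPA1A (-1.02), CCL2 (-1.01), BAAT (-0.91), CYP1A1 (-0.87), CDKN2C (-0.87) and TPPP3 (-0.84). CYP1A1 was at 6.07, 5.86 and 6.12 CPM with Yijin-tang, above its level with Soshiho-tang. NR4A3 was at 3.32, 3.80 and 3.25 CPM with Yijin-tang, and the difference between the extracts did not pass the test (0.029 ± 0.11).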

How the data were processed

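Per the labels' protocols, messenger RNA of A549 cells went into directional libraries that were sequenced in 100 bp pairs. The authors deposited expected counts for each gene. RSEM 1.3.3, STAR 2.7.3a, Trim Galore 0.6.5 and FastQC 0.11.9, with builds hg38 and GRCh38, are named in the submitters' processing notes. Which annotation release and strand setting were used is not given in the sources used here, so overlapping, antisense and near-identical genes are uncertain. The table held 60675 identifiers and 30 columns with values; 30 empty columns were not used. Counts were rounded, since 9.09% to 11.6% of the values of a library were not whole.

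The fit in edgeR 4.0.16 (R 4.3.3) took all 27 libraries whose group has 2 or more (10 groups), with TMM, filterByExpr, glmQLFit and glmQLFTest. The common dispersion of 0.00474 is a coefficient of variation of 6.89%. A call needs a Benjamini-Hochberg adjusted p under 0.05, and SE was taken as the size of the log2 fold change over the root of F. The script was tested on simulated data. The total count per library limits the precision of low genes. Libraries of a group differed by more than sampling noise (chi-square per degree of freedom 2.01 to 14.7 over the 5 groups used), so none was counted as a duplicate.

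Named genes were the 12 higher and 12 lower with the largest fold changes (called, with a symbol, mean log2 CPM of at least 2, no overlap). To these came the 8 and 8 with the largest CPM differences and members of 47 gene lists. The 6 and 6 with the largest differences from Yijin-tang were taken by the fold change rule, with its limits on level and overlap. Markers of 5 cell types were checked; 916 of 917 listed symbols matched. The comparison and lists were chosen with earlier results of these data known, and lists are described by counts and medians without a set test. Alternatives were DESeq2 1.42.0 (size factors, Wald test), plain library totals, no filter, only the groups compared, only batch letter E of the titles (all 6 libraries carry it), a replicate block, a transcript length offset from GENCODE 29 and leaving out each replicate. Some genes of the lists are not reported here.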

Additional observations from a re-analysis of the deposited data

How the results depend on the processing

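Of 498 calls of single genes 385 kept their direction and side of the threshold under every alternative, 113 lost the call under at least 1, and none reversed. Plain library totals ended 60 of 498 calls, no filter 36, DESeq2's Wald test 11 of 497. With plain totals 4635 genes were higher and 1708 lower at 500 µg/mL against vehicle, 1712 and 547 at 100 µg/mL, and 1522 and 431 at 20 µg/mL. At 20 µg/mL no filter gave 1119 higher, and a fit of only the groups compared gave 1448 higher and 1545 lower. The cause was not tested. With 1 library left out, the counts were 2316 to 2760 higher and 2149 to 2439 lower for 500 µg/mL against vehicle, 1277 to 1617 and 1183 to 1519 for 500 against 20 µg/mL, 334 to 1099 and 347 to 1038 for 100 µg/mL, 246 to 606 and 266 to 502 for 20 µg/mL, and 717 to 989 and 644 to 871 against Yijin-tang. For the 2 lower doses, each library of the comparison except replicate 3 of the treated group moved the counts by over 1.5 times when left out.

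In the main comparison replicate numbers did not pair the libraries (correlations of same-numbered deviations 0.0252, 0.0262 and -0.0103). For 500 against 20 µg/mL these correlations were larger and of both signs, 0.0755, -0.0548 and 0.1361. Libraries of unlike number gave -0.1872 to 0.1249 there, so some shared structure among treated libraries remains possible. With the replicate number as a block 3124 genes were higher and 2941 lower, 1929 and 1913 against 20 µg/mL, and no single-gene call was lost. Low genes such as HRK, CXCL8 and MUC16 rest on few counts. Vehicle and depth cannot be told apart, since the vehicle libraries are the shallowest of the 6.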

Other observations

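The 500 µg/mL libraries differed in genes that belong to no list leading the comparison. Of 14 genes of MHC class I presentation 7 were higher than vehicle and 0 lower. The immunoproteasome subunit PSMB8 rose by 0.83 ± 0.11 and PSMB10 by 0.53 ± 0.14, while HLA-B (-0.027) and HLA-C (-0.015) were not called. From 20 to 500 µg/mL 2 of the 14 rose, where 10.3% of all genes were higher. Of 17 circadian clock genes 2 rose and 6 fell, where 17.2% of all genes tested were higher and 16.0% lower. The share of clock genes that rose was thus not above that of all genes. The repressor NFIL3 rose by 0.71 ± 0.081 and NR1D2 by 0.58 ± 0.11, and the output factor DBP fell by 0.60 ± 0.16 and PER2 by 0.39 ± 0.069. Of 15 interferon-stimulated genes 3 rose and 1 fell, where 17.2% of all genes tested were higher and 16.0% lower. That list did not stand out from all genes.

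Epithelial genes went both ways. The tight junction genes OCLN and CLDN1 rose by 0.56 ± 0.097 and 0.50 ± 0.067, and TJP1 fell by 0.29 ± 0.070. Among keratins KRT7 was at 1954, 2043 and 2121 CPM in vehicle and 2482, 2678 and 2625 CPM at 500 µg/mL (0.35 ± 0.061), whereas the paired keratins KRT8 and KRT18 fell by 0.36 ± 0.093 and 0.29 ± 0.065. The endothelial junction gene ESAM, the only tested one of 8 endothelial markers, rose by 0.81 ± 0.14; PECAM1 had at most 4 counts in a library, and the summed level of the 8 was 4.03 to 4.61 CPM in vehicle and 7.14 to 8.16 at 500 µg/mL.

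Called genes differed in length. The median longest transcript was 3071 bases for genes higher at 500 µg/mL than in vehicle, 3991 for lower ones and 3181 for all tested. From 20 to 500 µg/mL it was 3594.5 and 3717, and from vehicle to 20 µg/mL 2396 and 4055. The part of transcript length in these results was tested through the length offset only, which gave 2982 higher and 3066 lower genes at 500 µg/mL against vehicle.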
